A study of Saccharomyces cerevisiae with 4 samples.

Results

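Transcripts of 9 genes of zinc transport and zinc-dependent regulation were examined in budding yeast, Saccharomyces cerevisiae, carrying an altered histone H3. The genes were ZRT1, ZRT2, ZRT3, ZRC1, COT1, ZAP1, IZH1, IZH2 and ZPS1, chosen by function with the higher ZRT1 signal of the mutant strain already known. Every array probe set that the platform annotation pairs with 1 of these genes was taken. This gave 12 of the 6504 probe sets assigned to a single gene, and 9 of the 5656 genes behind them. ZRT1 was read on 4 probe sets and each of the other genes on 1. Because the same comparison was in view when the genes were chosen, their differences between strains are a description. No p-value is given for a single gene of the 9, and counts of them past a threshold in the fit over all genes support nothing.

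The arrays came from 2 cultures of a mutant strain with histone H3 K4,36,79R and 2 cultures of its wild-type counterpart, all taken at 0 h. In the mutant H3, arginine replaces the lysines at positions 4, 36 and 79, the residues that the methyltransferases Set1, Set2 and Dot1 act on. All 4 cultures grew to mid-log phase in selective medium with galactose as the sugar. The 0 h point comes before the shift to glucose that represses wild-type H3, so wild-type H3 had not yet been switched off in the mutant strain. The comparison therefore addresses differences between the strains that preceded this shift, and the 6 and 9 h points named in the study design were not analysed here. The labels name the strains no further, and neither the background and markers of the strains nor the make-up of the selective medium is stated there.

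Yeast cells keep their zinc within narrow limits through a small set of membrane transporters and the transcription factor Zap1. When zinc is scarce, Zap1 activates genes for zinc uptake at the plasma membrane, for release of zinc from the vacuole and for other membrane and cell wall proteins, its own gene among them. The vacuole serves as the zinc store, filled by one kind of transporter and emptied by another.

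Median deposited signals were 38.6 and 42.9 on the mutant arrays and 47.6 and 39.3 on the wild-type arrays. Deposited mutant values came in steps 0.839 (replicate 1) and 0.960 (replicate 2) times those of the wild-type arrays. Signals printed here are deposited values that keep these factors, whereas log2 differences are taken after centring. Of the 4576 genes tested with limma, 2 passed an adjusted p of 0.05 (Benjamini-Hochberg). These were URA3 (difference 5.35 on the log2 scale, SE 0.17) and SIP18 (1.64, SE 0.16), both higher in the mutant. SIP18, a stress gene, did not pass when either wild-type replicate was left out. URA3, an enzyme gene of uracil synthesis often used as a selection marker, had signals of 594 and 643 in the mutant cultures against 14.1 and 14.6 in the wild-type cultures. The strains thus differed in URA3 as well as in H3, and the share of each in any other difference cannot be told apart here. GAL1, the galactokinase gene induced by galactose, was bright in every culture, at 1058 and 1263 in the mutant and 1454 and 1424 in the wild type. No batch is recorded in the labels. In total RNA from a culture, fewer expressing cells and less RNA per cell cannot be told apart.

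Of the 9 zinc genes, 8 lay above the filter on low signals and were tested. Mutant minus wild-type differences were positive for 5 of them (ZRT1, ZRT2, ZRT3, ZRC1 and ZPS1) and negative for 3 (COT1, IZH1 and IZH2), where 48.4% of all genes tested had a positive difference. The median was 0.30 on the log2 scale, beside -0.01 over all 4576 genes tested. None passed the threshold in either direction (0 of 8 with limma, where the share of all genes past it was 0.0437%). At an unadjusted p under 0.05 there were 3 higher and 0 lower, beside 4.92% higher and 3.61% lower among all genes tested. After centring each array on its median, both mutant cultures lay beyond both wild-type cultures for 7 of the 8 genes, 5 higher and 2 lower, as they did for 39.4% of all genes tested. Since the genes were chosen with this contrast known, nothing further is read from these counts.

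**Figure D1:**
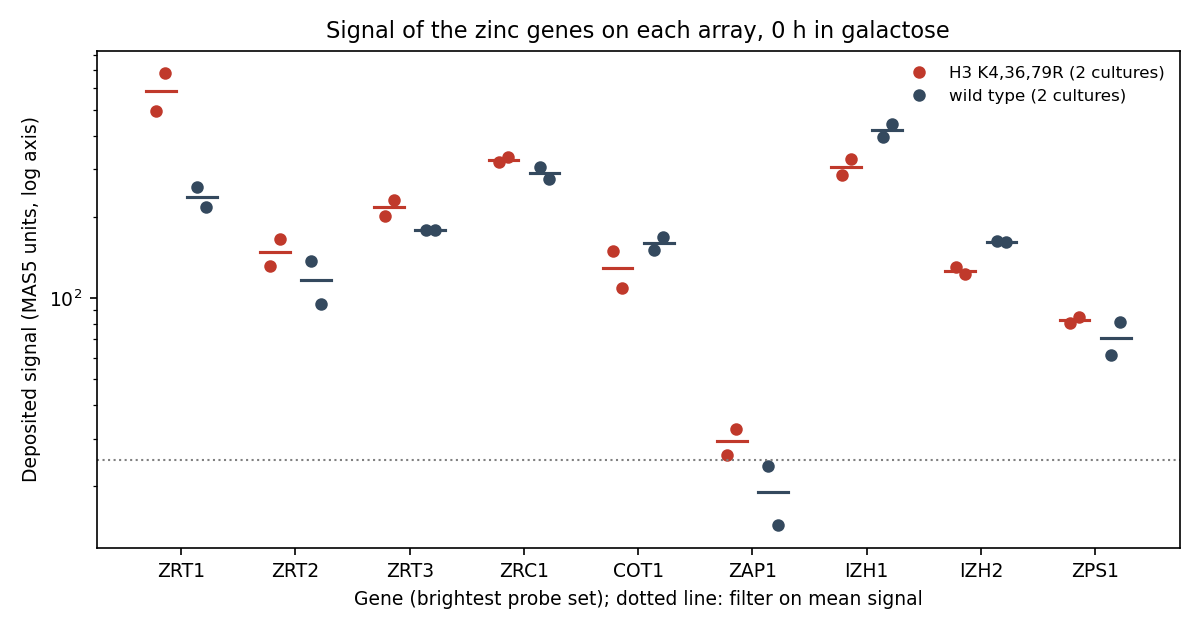
Deposited signal (log axis) of the 9 zinc genes on the 4 arrays, with the 2 H3 K4,36,79R cultures in red left of the 2 wild-type cultures in dark blue, a point per array and a bar at each group's mean. The brightest ZRT1 probe set is shown; its mutant points lie above its wild-type points by more than those of any other gene shown, and ZAP1 lies around the dotted line that marks the filter on mean signal.

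The first pair of genes takes zinc up across the plasma membrane. ZRT1 (YGL255W) encodes the high-affinity zinc transporter, which is strongly induced by Zap1 in zinc-poor cells. Its brightest probe set had signals of 492 and 681 in the mutant cultures, against 257 and 218 in the wild-type cultures. Both mutant cultures were well above both wild-type cultures, and the groups did not overlap. On the centred log2 scale ZRT1 stood at 2.61 ± 0.24 in the mutant and 1.22 ± 0.12 in the wild type (SD, n = 2 each), a difference of 1.39 (SE 0.18), or 2.62-fold. In the order of all 4576 differences it ranked 6 from the highest, and 0.240% of genes had a difference of larger size. The gap between replicates was 0.33 in the mutant and 0.17 in the wild type, so the strains lay further apart than either pair of replicates.

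The other ZRT1 probe sets gave a second reading of the same RNA, not a further replicate. The probe set 2252_g_at had signals of 390 and 411 in the mutant against 138 and 161 in the wild type, a log2 difference of 1.52 (SE 0.17). The probe set 2253_s_at had 235 and 239 in the mutant against 76.8 and 79.9 in the wild type, a difference of 1.68 (SE 0.16). The 3 probe sets above the filter thus gave 2.62-fold to 3.20-fold, and none of them had overlapping groups. The fourth, 2251_at, was dim on every array, with 10.6 and 11.2 in the mutant against 18.2 and 12.1 in the wild type. It lay below the filter, and its difference of -0.28 (SE 0.27) was of the opposite sign and about the size of its SE. These SEs come from a fit over all 6504 single-gene probe sets. The suffixes _g_ and _s_ mark probe sets whose design admits sequence shared with other targets, whereas 5258_at and 2251_at carry no such mark.

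**Figure D2:**
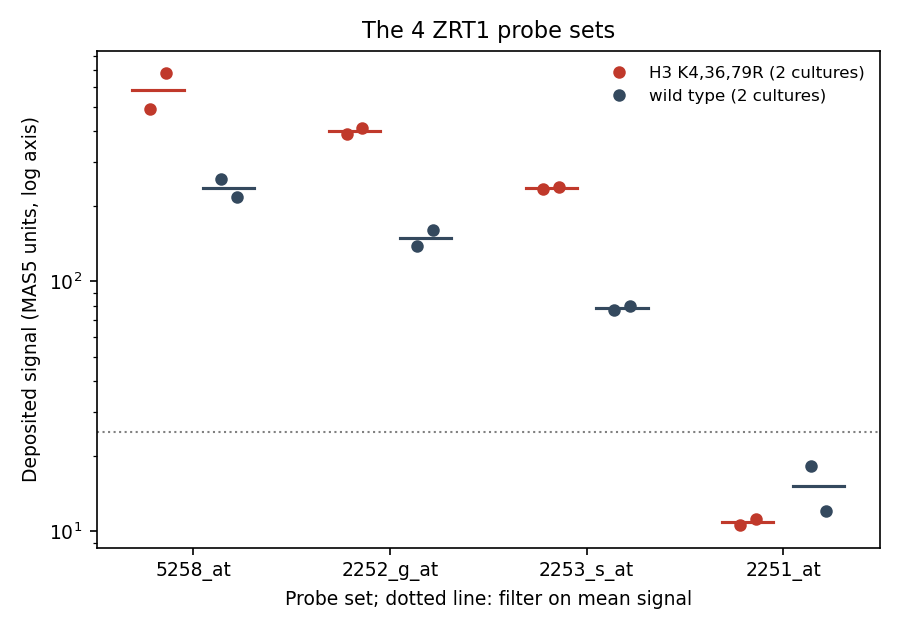
Deposited signal (log axis) of the 4 probe sets annotated to ZRT1, with the 2 mutant cultures in red left of the 2 wild-type cultures in dark blue, a point per array and a bar at each group's mean. In the 3 bright probe sets the mutant points lie 2.62-fold to 3.20-fold above the wild-type points after centring, while 2251_at lies under the dotted filter line in all 4 cultures.

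ZRT2 (YLR130C) encodes the low-affinity transporter that carries zinc into cells with an adequate supply. Its signals were 131 and 165 in the mutant cultures and 137 and 95.1 in the wild-type cultures. The deposited values of the groups overlapped, whereas the centred values did not. ZRT2 differed by 0.47 (SE 0.20), with a gap of 0.45 between the wild-type replicates that was nearly as large. Leaving out wild-type replicate 1 gave 0.69, and leaving out wild-type replicate 2 gave 0.24.

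The vacuolar transporters showed smaller differences. ZRT3 (YKL175W) encodes the transporter that releases stored zinc from the vacuole and is also a Zap1 target. It had signals of 202 and 231 in the mutant and 179 and 179 in the wild type, and both mutant cultures were the higher ones. The difference was 0.37 (SE 0.15), beside replicate gaps of 0.06 in the mutant and 0.07 in the wild type. ZRC1 (YMR243C) encodes a transporter that moves zinc into the vacuole and protects cells against zinc excess. Its signals were 319 and 333 in the mutant against 306 and 275 in the wild type, without overlap, and it differed by 0.27 (SE 0.15). COT1 (YOR316C) encodes the related vacuolar transporter, which also carries cobalt. It had 150 and 109 in the mutant and 151 and 168 in the wild type, a difference of -0.21 (SE 0.22) that was smaller than the gap of 0.59 between the mutant replicates. Mutant replicate 2 alone was low, and without it the difference in COT1 turned to 0.08. Among the vacuolar transporters, the difference was thus positive for ZRT3 and ZRC1, and for COT1 it lay within the spread between replicates.

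ZAP1 (YJL056C), the gene of the regulator itself, had low signals. Its signals were 26.0 and 32.5 in the mutant cultures and 23.7 and 14.3 in the wild-type cultures. Its mean of 24.1 lay just under the filter at 24.9, so ZAP1 was not tested with the other genes. Both mutant values were above both wild-type values, and the log2 difference was 0.71 (SE 0.28). The wild-type replicates were 0.59 apart on the same scale.

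IZH1 and IZH2 encode related membrane proteins of the progestin and adiponectin receptor type, named for their link to zinc homeostasis, and IZH1 is a Zap1 target. IZH1 (YDR492W) had signals of 286 and 327 in the mutant cultures against 397 and 442 in the wild-type cultures. Both mutant cultures were the lower ones, with a difference of -0.34 (SE 0.16). IZH2 (YOL002C) had 130 and 122 in the mutant against 162 and 161 in the wild type, again without overlap, and a difference of -0.25 (SE 0.16), which was -0.13 without mutant replicate 2. ZPS1 (YOL154W), a Zap1 target that encodes a cell wall protein, had 80.8 and 84.7 in the mutant and 61.2 and 81.2 in the wild type. Here wild-type replicate 2 lay at the level of the mutant cultures, and only wild-type replicate 1 was low. ZPS1 differed by 0.33 (SE 0.21). With wild-type replicate 1 left out this was 0.10, and with wild-type replicate 2 left out 0.57.

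A list of 25 other zinc genes was set beside these 9, drawn up from textbook knowledge of Zap1 and zinc transport. It held 19 genes activated by Zap1, 2 alcohol dehydrogenase genes repressed under its control (ADH1 and ADH3) and 4 further zinc transport genes. Of the 25, 21 were tested, and 0 passed the threshold with limma in either direction, beside 0.0437% of all genes. At an unadjusted p under 0.05 there were 0 higher and 1 lower, IZH4, beside 8.52% of all genes in either direction. IZH4 passed the signal filter only through its wild-type signals, so nothing is read from this count. Differences were positive for 10 and negative for 11, with a median of -0.01, the same as over all genes tested. Among the 16 tested genes activated by Zap1, 7 were positive and 9 negative. The groups did not overlap for 4 of the 21, 2 in each direction, beside 21.0% of all genes higher and 18.5% lower.

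The 3 highest of the listed genes were PST1 (0.22, SE 0.19), a cell wall protein gene, ZRG17 (0.22, SE 0.17), a gene for zinc transport into the secretory pathway, and UTH1 (0.14, SE 0.25). The 3 lowest were IZH4 (-0.98, SE 0.24), ADH4 (-0.24, SE 0.21) and MET30 (-0.22, SE 0.27). When 1 array was left out, ZRG17 moved least, from 0.16 to 0.28, and the others moved more widely. PST1 ran from 0.03 without wild-type replicate 1 to 0.42 without the other wild-type array, and UTH1 from 0.05 to 0.22 in the same fits. ADH4 ran from -0.44 without wild-type replicate 1 to -0.04 without the other, and was at -0.06 without mutant replicate 1. MET30 was at -0.59 without mutant replicate 2 and turned to 0.14 without mutant replicate 1. IZH4, another gene of the IZH family, had signals of 17.7 and 17.4 in the mutant cultures against 34.6 and 45.1 in the wild-type cultures. Both mutant values lay under the signal filter, so the gene passed it through its wild-type signals, and its fold is understated by the added pseudocount. The difference in IZH4 was -1.20 when wild-type replicate 1 was left out and -0.76 when wild-type replicate 2 was. The remaining gene of the family, IZH3, stood at 0.05 (SE 0.16). ADH1, the main fermentative alcohol dehydrogenase and an abundant zinc enzyme, differed by 0.04 (SE 0.31), and ADH3, the mitochondrial enzyme, by -0.06 (SE 0.21). PIS1, the phosphatidylinositol synthase gene that Zap1 activates, differed by -0.01 (SE 0.18). IZH3, ADH1, ADH3 and PIS1 each took either sign when 1 array or another was left out.

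**Figure D3:**
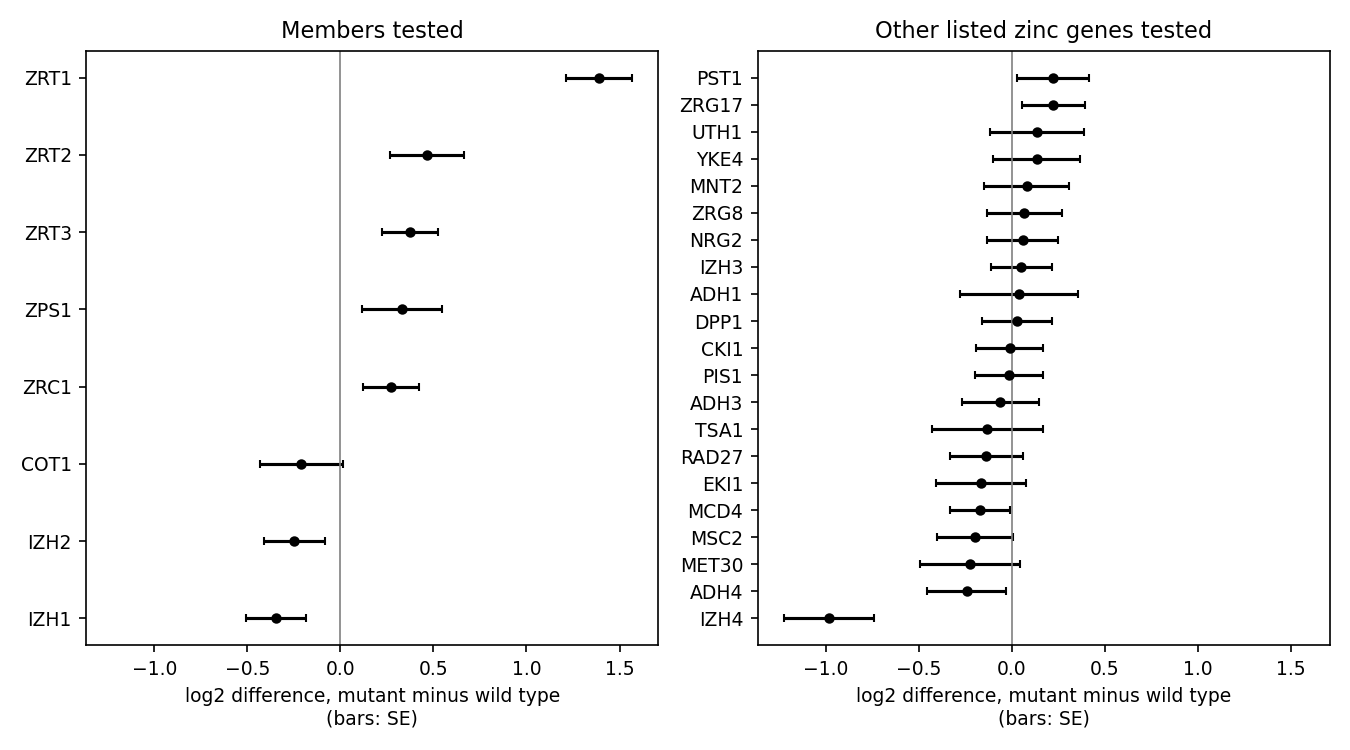
Log2 differences in centred signal, H3 K4,36,79R minus wild type, with bars of 1 SE, for the 8 zinc genes tested (left) and the 21 other zinc genes tested (right). ZRT1 at 1.39 and IZH4 at -0.98 lie furthest from 0, and the other 27 genes lie between -0.34 and 0.47.

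The 4 listed genes below the filter were FET4, PHO84, VEL1 and YOR387C. FET4, a low-affinity iron transporter that also carries zinc, had signals of 13.5 and 12.8 in the mutant and 9.4 and 4.7 in the wild type. PHO84, a phosphate transporter that can carry zinc at low affinity, had 27.9 and 36.9 in the mutant and 18.7 and 15.4 in the wild type. Its mean of 24.7 lay just under the filter. Both mutant values of FET4 and of PHO84 were above both wild-type values, at levels where background weighs heavily. VEL1 and YOR387C, both strongly induced in zinc-poor cells, had signals of at most 6.9 on any array. FET4, PHO84, IZH3 and YOR387C fall outside the rule for named genes, as do ADH1, ADH3 and PIS1, and were named after their values had been seen.

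ZRT1 lies near a chromosome end, at place 10 among the protein-coding genes counted from the left end of chromosome VII, next to ADH4, MNT2 and VEL1, which are all on the list of genes activated by Zap1. ADH4, an alcohol dehydrogenase gene directly beside ZRT1, had signals of 81.0 and 115 in the mutant against 110 and 139 in the wild type, with overlap. MNT2, a mannosyltransferase gene and the next one outward, had 57.6 and 92.2 in the mutant against 82.0 and 67.2 in the wild type, a difference of 0.08 (SE 0.23) that took either sign when 1 array or another was left out. VEL1 gave at most 3.2 on any array. On the other side of ZRT1, FZF1, the gene of a transcription factor of sulphite metabolism, differed by -0.50 (SE 0.25). Its signals of 20.1 and 29.5 in the mutant lay below those of 34.0 and 42.8 in the wild type. The mutant values lay on either side of the filter at 24.9, so FZF1 passed it mainly through its wild-type signals. The FZF1 difference was -0.31 without wild-type replicate 2, as it was without mutant replicate 1. HXK2, the hexokinase gene, had 632 and 949 in the mutant against 1078 and 1598 in the wild type. The HXK2 difference was -0.65 (SE 0.28), and it depended on the wild-type replicate used, at -0.97 with replicate 2 alone and -0.33 with replicate 1 alone. RTG2 differed by 0.29 (SE 0.19), or 0.50 when wild-type replicate 1 was left out and 0.08 when wild-type replicate 2 was. YPS5, HFM1 and RMR1 were below the filter, with differences from -0.22 to 0.24, and YGL258W-A had no single-gene probe set. No tested gene among the 5 on either side had a difference near that of ZRT1. The signals of VEL1 and YPS5 were too low to show one. ZPS1 was the other zinc gene near an end, at place 16 on chromosome XV, and the remaining 7 lay at places from 46 to 188 from the nearer end.

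**Figure D4:**
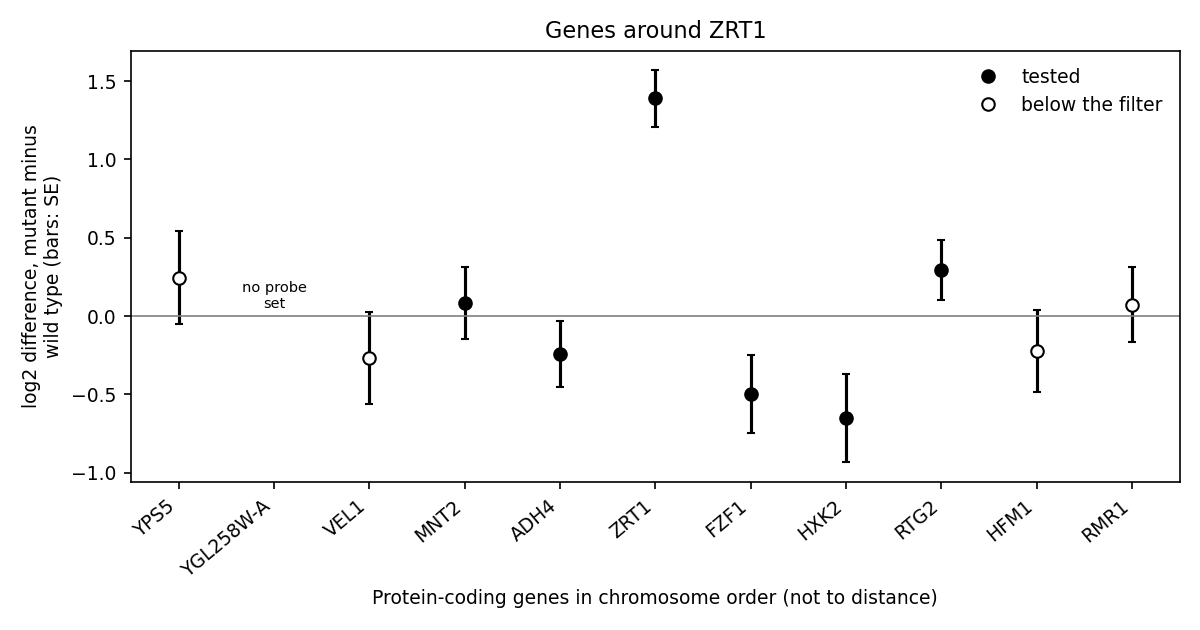
Log2 differences, H3 K4,36,79R minus wild type, with bars of 1 SE, for ZRT1 and the 5 protein-coding genes on either side in chromosome order, the chromosome end being to the left. ZRT1 stands at 1.39, while the genes around it lie between -0.65 and 0.29; open points are below the signal filter.

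The genes whose profile over the 4 arrays was most like that of ZRT1 were found by the Euclidean distance between centred log2 signals after subtracting each gene's mean. Over 4 arrays in 2 groups this mostly picks out genes with a difference of similar size. The 5 nearest were YAT2 (distance 0.26), a carnitine acetyltransferase gene, ALD3 (0.37), an aldehyde dehydrogenase gene, CPP3 (0.40), SRL3 (0.42) and BDH2 (0.43). Their own differences between the strains ran from 1.00 for BDH2 to 1.51 for ALD3. None of the zinc genes was among them. The nearest was ZRT2, at a distance of 0.95 and place 175 among the 4575 other genes, followed by ZRT3 at place 316 and ZRC1 at place 604. IZH1 was the farthest, at place 3996.

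**Figure D5:**
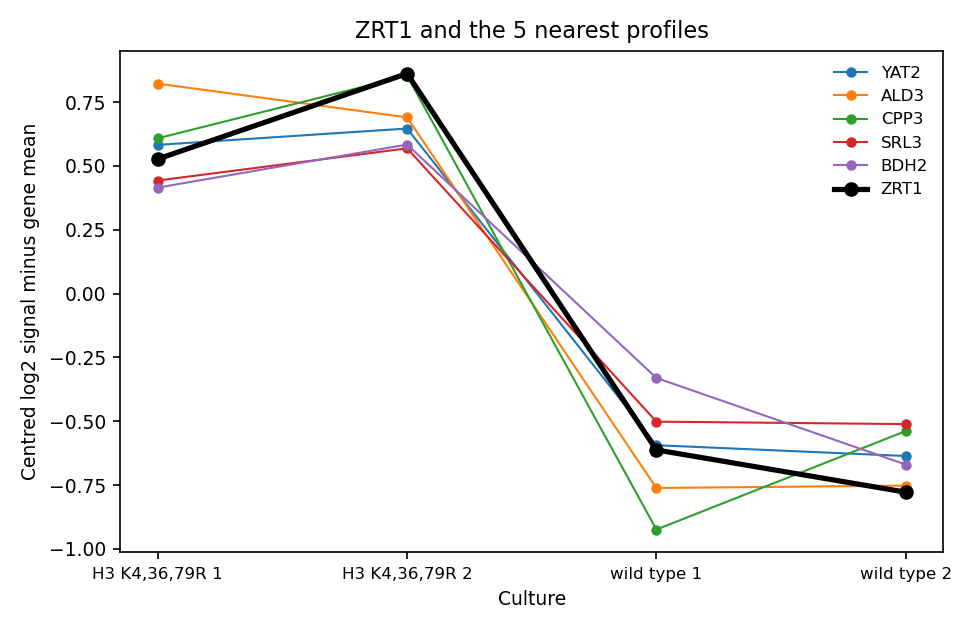
Centred log2 signal minus the gene's mean on the 2 H3 K4,36,79R arrays (left) and the 2 wild-type arrays (right) for ZRT1 (thick black line) and the 5 genes with the nearest profiles, lines joining the values of 1 gene. All 6 genes lie above their mean on both mutant arrays and below it on both wild-type arrays, with distances to ZRT1 from 0.26 to 0.43.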

How the data were processed

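The deposited values are signal intensities on a linear scale, 1 per probe set, which the authors computed with MAS5 (per the submitters' processing notes, which name no version or scaling target). All wild-type values were multiples of 0.1, whereas mutant values were multiples of 0.0839 (replicate 1) and 0.0960 (replicate 2), with 100% whole within 0.05 steps, a factor per array that centring removes up to the pseudocount.

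A pseudocount of 2 (the 10th percentile) was added before log2, so fold changes of dim genes are understated. The 25% of probe sets with the lowest mean signal were dropped, and each gene was read on its brightest probe set. All 6504 single-gene probe sets were found in RefSeq's table for assembly R64, used for names and gene order only. Arrays were centred on their median over the 4576 genes tested. Groups came from the sample titles, and limma 3.58.1 (R 4.3.3) tested their difference with an intensity trend (residual degrees of freedom 2, prior 5.63, two-sided, Benjamini-Hochberg over all genes tested). The fit was first checked on simulated data, in which all planted differences were larger in size than that of ZRT1. Arrays were taken as separate cultures, following the design text. The 2 arrays per group limit the precision.

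The zinc genes, the list of 25 others, the naming rule and the alternatives were chosen with earlier results of these data known. The rule took every member, the 3 highest and 3 lowest listed genes, those beside ZRT1, the 5 genes on either side of ZRT1, the 5 nearest profiles, GAL1, URA3 and any gene past the threshold. The planned promoter and protein comparisons were not run. Alternatives covered normalisation, pseudocount, filter, probe set choice, variance model, replicate block and leaving out each array.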

Additional observations from a re-analysis of the deposited data

How the results depend on the processing

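With 2 arrays per group, precision is set by their number. Signals around or under the filter limit what can be said of ZAP1 and the 4 untested listed genes. The same holds for IZH4 and FZF1 in the mutant. ZRT1 kept its direction in all 10 alternative settings (1.28 to 1.53) and in the 4 fits without an array (1.22 to 1.56). Of the other 7 tested zinc genes, all kept their sign in the 10 settings, and COT1 alone turned without mutant replicate 2. The 10 settings are not all separate checks of a difference. The replicate block and the fit without the intensity trend cannot alter it with 2 arrays per group. The filter settings alter it only through the centring, as does the mean of probe sets for genes with a single probe set. Without centring, the array factors described above stay in the mutant values, and the median of all genes moves to -0.11. ZRT3 then stood at 0.27 and ZRC1 at 0.17. The groups did not overlap for 6 zinc genes in place of 7 (3 higher, 3 lower), beside 41.2% of all genes tested. This count was added after seeing the data.

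The number of zinc genes past the threshold, 0 as reported, was not the same in every fit without an array. It was 1 without centring, with quantile normalisation and with cyclic loess, where 0.240%, 0.197% and 0.175% of all genes tested passed. It was also 1 with the lowest 50% left out, with the mean of probe sets and with the replicate block (0.227%, 0.197% and 0.699%). It was 0 in the other 4 settings, where 0.0219% to 0.0437% of all genes passed. For the 25 other zinc genes it was 0 throughout. Over all genes it was 2 (2 higher, 0 lower) as reported, 11 without centring (6 higher, 5 lower), 9 with quantile normalisation (5 higher, 4 lower), 8 with cyclic loess (5 higher, 3 lower), 7 with the lowest 50% left out (4 higher, 3 lower), 9 with the mean of probe sets (5 higher, 4 lower), 1 without the intensity trend (1 higher, 0 lower) and 32 with the replicate block (20 higher, 12 lower), and ran from 1 without either wild-type replicate to 14 without mutant replicate 1 and 21 without mutant replicate 2. The cause was not tested, and fits with the block or without an array have 1 residual degree of freedom. The labels do not say that a replicate number marks a shared culture or day, and deviations of same-numbered arrays correlated at 0.04 across genes.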
